A study of Mus musculus with 6 samples.

Results

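The 9 genes described here encode the hypoxia-inducible factors (HIF) and the enzymes through which cells sense oxygen: the alpha subunits Hif1a and Epas1, the beta subunits Arnt and Arnt2, the prolyl hydroxylases Egln1, Egln2 and Egln3, the ubiquitin ligase subunit Vhl, and the asparaginyl hydroxylase Hif1an. They were taken by symbol from a count table of 21960 genes, and all 9 passed the filter on low counts that left 11800 genes for testing. RNA-Seq had been run on 3 mock and 3 p140Cap libraries of TuBo cells, a tumor line from the mammary carcinoma of a BALB/c-MMTV-NeuT mouse, so both groups carry the rat Neu transgene driven by the mammary tumor virus promoter. The p140Cap cells received the p140Cap cDNA (gene Srcin1) in a retroviral pBabe-puro vector, were selected with puromycin and were made by pooling clones, whereas the mock cells are labelled wild type and no source used here gives the vector they carried. The comparison asks which transcripts of this pathway differ between TuBo cells with and without p140Cap. Nothing in the labels says that replicates were separate cultures, so p-values measure only the spread between these libraries, which may be technical.

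In the HIF pathway an alpha subunit pairs with a beta subunit and binds DNA at hypoxia response elements, switching on genes of glycolysis, angiogenesis and pH control. When oxygen is present, EGLN enzymes hydroxylate prolines of the alpha subunit, VHL binds the hydroxylated protein, and the VHL ligase marks it for degradation, while the asparaginyl hydroxylase encoded by Hif1an (also called FIH) blocks its contact with coactivators. Egln3 and Egln1 are themselves HIF target genes, which makes the pathway its own brake, and HIF activity is a recurrent feature of mammary tumors. Because alpha subunits are controlled mainly at the protein level, transcript levels describe the supply of pathway parts and not the activity of HIF. No source used here gives the oxygen tension or the cell density at harvest.

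The 250 bases upstream of a transcription start in the promoter table of RefSeq are shown for the 3 members with the largest increase, for Egln2 as the prolyl hydroxylase whose groups overlapped, and for Hif1an as the sole member that fell. The sequences are on the mouse build GRCm38.p6, run 5′ to 3′ on the strand of the gene, and end at the base before that start. For Hif1a, and for Arnt and Arnt2, which are not shown, the start used lies inside the gene span given for that gene below, so these windows are not wholly upstream of the gene. Capitals mark the letters ACGTG or GCGTG, the core of hypoxia response elements, on either strand, so that they can also read CACGT or CACGC.
Egln3 (chr12:54203875-54204124, minus strand): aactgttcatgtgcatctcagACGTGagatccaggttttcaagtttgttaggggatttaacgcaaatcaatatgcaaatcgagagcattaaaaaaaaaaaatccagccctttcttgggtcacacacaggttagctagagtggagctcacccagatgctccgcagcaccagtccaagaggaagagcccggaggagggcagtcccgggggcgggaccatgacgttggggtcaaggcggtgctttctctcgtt
Hif1a (chr12:73907617-73907866, plus strand): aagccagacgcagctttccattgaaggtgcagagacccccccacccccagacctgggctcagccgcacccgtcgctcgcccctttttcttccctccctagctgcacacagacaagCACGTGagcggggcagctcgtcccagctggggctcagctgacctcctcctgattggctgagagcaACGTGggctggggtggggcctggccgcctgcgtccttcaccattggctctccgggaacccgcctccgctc
Egln1 (chr8:124949255-124949504, minus strand): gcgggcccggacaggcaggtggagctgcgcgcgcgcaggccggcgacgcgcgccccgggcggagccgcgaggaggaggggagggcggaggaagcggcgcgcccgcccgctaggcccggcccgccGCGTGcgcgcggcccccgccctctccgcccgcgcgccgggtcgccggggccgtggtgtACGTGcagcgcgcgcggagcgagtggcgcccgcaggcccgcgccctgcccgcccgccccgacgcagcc
Egln2 (chr7:27166803-27167052, minus strand): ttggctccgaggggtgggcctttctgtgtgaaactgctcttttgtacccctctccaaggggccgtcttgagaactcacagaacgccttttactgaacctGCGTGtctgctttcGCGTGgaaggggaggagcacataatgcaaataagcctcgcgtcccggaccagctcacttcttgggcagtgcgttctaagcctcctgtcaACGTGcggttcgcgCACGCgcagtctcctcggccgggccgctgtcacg
Hif1an (chr19:44562604-44562853, plus strand): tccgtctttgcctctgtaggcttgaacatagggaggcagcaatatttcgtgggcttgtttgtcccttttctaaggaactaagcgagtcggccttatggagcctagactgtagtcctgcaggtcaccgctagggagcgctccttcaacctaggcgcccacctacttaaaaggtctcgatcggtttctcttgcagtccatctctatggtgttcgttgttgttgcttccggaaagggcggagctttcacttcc

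Matches were counted per strand, so the palindrome in the Hif1a window, which reads ACGTG both ways, counted as 2 of its 3 matches. The Egln2 window held 4 matches, that of Egln1 held 2, that of Egln3 held 1 and that of Hif1an held 0. Of the other members, Arnt had 1 match, Arnt2 and Vhl had 0, and a second Egln2 window further inside the gene had 1. No window was available for Epas1, so the 9 windows cover 8 members, of which 5 had a match. In all, 6 of the 9 windows had a match, where 38.6% of the 32851 mouse windows of this length held at least 1, 6.58% at least 3 and 2.58% at least 4. Both motifs contain CG, and the windows of the members had a GC content of 48% for the second Egln2 window to 86% for Egln1, against a median of 52.4% over all windows. The part of base composition in these counts was not tested. Egln2, whose transcript did not pass the test, had the most matches, and a match in these letters is a description and not a binding site.

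Sequencing depth ran from 13770385 to 75506562 reads, and the mock libraries were all deeper than the p140Cap libraries (ratio of group medians 2.62). All values below are in CPM, that is, reads scaled to a common, TMM-normalised library total, unless another scale is named. Srcin1 rose from 15.0 ± 1.96 to 2343 ± 153 CPM (SD, n = 3 libraries per group here and throughout). Epithelial markers summed to 4863 to 5174 CPM in mock and 5836 to 5963 CPM in p140Cap libraries, with the keratin gene Krt19 near 0, whereas 5 endothelial markers together stayed at or below 0.734 CPM, with Kdr at 0 in every library. Of 5 immune markers, summing to 2.07 to 2.34 and 3.23 to 4.09 CPM, Ptprc, Cd3e and Adgre1 were at 0, and of 5 fibroblast markers, summing to 9.93 to 10.5 and 11.3 to 14.1 CPM, Col1a2, Col3a1 and Dcn were at 0. In p140Cap libraries Pecam1 rose by 1.25, Cd68 by 0.83 and Col1a1 by 0.80 on the log2 scale. Pdgfra, the only other marker of these cell types with enough reads for testing, changed by 0.085. The part of these marker differences in the results was not tested. In such bulk samples, fewer cells that express a gene and less of its RNA per cell cannot be told apart.

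In p140Cap cells 5 of the 9 genes rose (Egln3, Hif1a, Egln1, Arnt and Vhl), Hif1an fell, and Epas1, Arnt2 and Egln2 did not pass the test. Genes were called at an adjusted p under 0.05 in the quasi-likelihood test of edgeR, with p-values adjusted by Benjamini-Hochberg over all 11800 genes. By the same test 71.1% of all genes were called, 35.2% higher and 35.9% lower, so 6 calls among 9 genes is a share near that of the whole table. Increases of at least 0.5 on the log2 scale were called for 4 of the 9 genes, against 15.3% of all genes, and decreases of that size for 0 of the 9, against 15.5%. Both counts rest on genes near this cut-off. Across the alternative fits described at the end, Arnt, at 0.502, ranged from 0.465 to 0.523. Hif1an, at -0.485, ranged from -0.523 to -0.443. The same 6 genes had CPM values that did not overlap between groups, as 73.4% of all genes did. The median log2 fold change was 0.27 over the 9 genes and -0.0015 over all genes tested, with 90% of all genes between -1.01 and 0.99. The plot of CPM by library shows both kinds of member side by side.

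**Figure D1:**
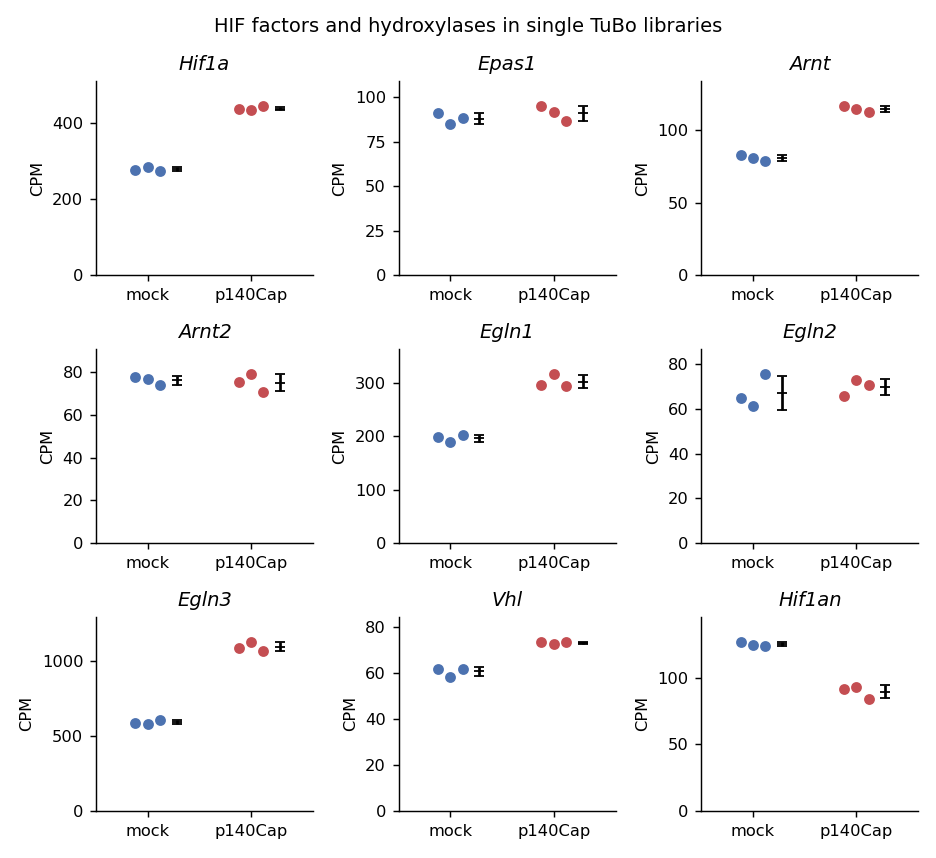
Normalised read count (CPM, linear axis starting at 0) of each of the 9 genes in the 3 mock and 3 p140Cap libraries, with 1 panel per gene, each point a library and the black bar beside the points the group mean ± SD. The groups separate for Hif1a, Arnt, Egln1, Egln3 and Vhl, which are higher in p140Cap libraries, and for Hif1an, which is lower, whereas they overlap for Epas1, Arnt2 and Egln2.

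Hif1a, the alpha subunit found in nearly every cell type, rose 1.57-fold. Mock libraries held 21178, 11367 and 9165 of its reads, and the shallower p140Cap libraries 6641, 6367 and 6047. On the CPM scale the mock libraries had 277, 286 and 275 and the p140Cap libraries 438, 434 and 444, so every p140Cap library lay well above every mock library and the spread within each group was small. Its log2 fold change was 0.65 (SE 0.045, 95% confidence interval 0.556 to 0.747, edgeR adjusted p = 1.88e-09). Hif1a (ENSMUSG00000021109) lies at chr12:73901324-73947554 (GRCm38.p6, as for all gene positions given here).

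Epas1, which encodes HIF-2α and is best known from endothelium and kidney, did not pass the test. Its CPM values were 90.8, 84.7 and 88.4 in mock and 94.8, 91.5 and 86.5 in p140Cap libraries, and the groups overlapped. The log2 fold change was 0.047 with a 95% confidence interval of -0.0611 to 0.156 (edgeR adjusted p = 0.418), so a rise of the size seen for Hif1a lies outside the interval. Epas1 (ENSMUSG00000024140) lies at chr17:86753864-86833410. Its span overlaps that of Gm50008 on the same strand, and overlap of exons was not tested.

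Between the alpha subunits, the log2 ratio of Epas1 to Hif1a was -1.61, -1.75 and -1.64 in mock libraries and -2.21, -2.25 and -2.36 in p140Cap libraries. Every p140Cap value lay below every mock value, and the ratio changed by -0.604 on the log2 scale, to 0.658 of its mock value. An exact two-sided permutation test gave p = 0.1, the smallest that 3 against 3 libraries allow, and p = 0.1 after adjustment over the 4 ratios compared. On the scale of CPM per kilobase of exon, Hif1a made up 68.2% ± 1.16 of the summed level of both alpha subunits in mock and 76.6% ± 0.982 in p140Cap libraries, and with canonical transcript lengths 71.9% ± 1.08 and 79.5% ± 0.889. Hif3a, the third alpha subunit gene and no member of the set, had 10, 7 and 5 reads in mock and 1, 0 and 0 reads in p140Cap libraries, too few to be tested.

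The beta subunits differed in the same manner. Arnt, the constitutive partner of the alpha subunits and of the dioxin receptor, rose from 83.0, 80.5 and 78.3 CPM in mock to 116, 115 and 112 CPM in p140Cap libraries, with no overlap between groups. Its log2 fold change was 0.50 (SE 0.047, 1.42-fold, edgeR adjusted p = 7.06e-08). Arnt2, a close paralog known mainly from neurons, had 77.8, 76.7 and 73.8 CPM in mock and 75.4, 78.9 and 70.7 CPM in p140Cap libraries, which overlapped. The log2 fold change of Arnt2 was -0.021 with a 95% confidence interval of -0.132 to 0.0898 (edgeR adjusted p = 0.728), and it was 0.015 without p140Cap replicate 3.

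The log2 ratio of Arnt2 to Arnt fell from -0.0822 ± 0.0123 in mock to -0.607 ± 0.0642 in p140Cap libraries, a difference of -0.525 with no overlap (exact two-sided permutation p = 0.1, adjusted p = 0.1). Arnt supplied 50.3% ± 0.213 of the summed CPM per kilobase of both beta subunits in mock and 59.3% ± 1.08 in p140Cap libraries. With canonical transcript lengths the Arnt share was 59.6% ± 0.205 in mock and 68.0% ± 0.971 in p140Cap libraries, so the even split in mock held for the length over all exons only. Arnt (ENSMUSG00000015522) lies at chr3:95434367-95497240 and Arnt2 (ENSMUSG00000015709) at chr7:84246274-84411741. On the same strand the span of Arnt overlaps that of Gm42672, and the span of Arnt2 that of Gm25790. Overlap of exons was not tested, so it is not known whether part of their reads could belong to those genes.

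**Figure D2:**
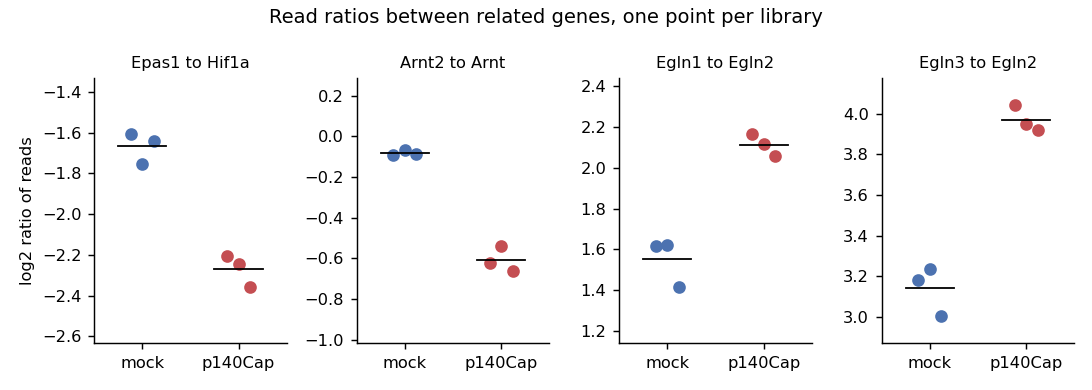
Log2 ratio of normalised read counts between paralogs in each library, for Epas1 to Hif1a, Arnt2 to Arnt, Egln1 to Egln2 and Egln3 to Egln2, with 1 point per library and a line at the group mean, each panel on its own axis. In all 4 ratios the 3 p140Cap points lie apart from the 3 mock points, with differences of -0.604, -0.525, 0.562 and 0.829.

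Among the prolyl hydroxylases Egln3 and Egln1 rose and Egln2 did not pass the test. Egln3, also called PHD3, had 45029, 22938 and 20153 reads in mock and 16460, 16521 and 14530 reads in p140Cap libraries. Its CPM values were 588, 577 and 605 in mock and 1085, 1125 and 1067 in p140Cap libraries, so each p140Cap library stood far above the mock range. The log2 fold change of 0.89 (SE 0.047, 95% confidence interval 0.79 to 0.987, 1.85-fold, edgeR adjusted p = 7.02e-11) was the largest of the 9. Its mean level over all 6 libraries, in CPM per kilobase of exon, was at the 99.4th percentile of the tested genes. Egln3 (ENSMUSG00000035105) lies at chr12:54178981-54203874 and shares no exon with another annotated gene.

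Egln1, which encodes PHD2, the main hydroxylase of HIF in normal oxygen, had 198, 188 and 201 CPM in mock and 295, 316 and 294 CPM in p140Cap libraries, with no overlap. Its log2 fold change was 0.62 (SE 0.049, 1.54-fold, edgeR adjusted p = 8.48e-09), close to that of Hif1a. Egln2, which encodes PHD1 and is not known as a HIF target, had 64.7, 61.1 and 75.4 CPM in mock and 65.8, 72.8 and 70.5 CPM in p140Cap libraries. The mock libraries of Egln2 spanned the whole p140Cap range, and mock replicate 3 was the highest of all 6. The log2 fold change was 0.058 with a 95% confidence interval of -0.0906 to 0.206 (edgeR adjusted p = 0.471). This value rested on single libraries: it was 0.14 without mock replicate 3 (adjusted p = 0.0368) and -0.004 without mock replicate 2. Egln1 (ENSMUSG00000031987) lies at chr8:124908587-124949254 and Egln2 (ENSMUSG00000058709) at chr7:27158658-27166802.

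Relative to Egln2, Egln3 increased from a log2 ratio of 3.14 ± 0.123 to 3.97 ± 0.0646 and Egln1 from 1.55 ± 0.118 to 2.11 ± 0.0526. Neither ratio overlapped between groups, and the exact two-sided permutation p was 0.1 for each (adjusted p = 0.1). On the scale of CPM per kilobase the 3 hydroxylases summed to 249.9 ± 6.95 in mock and 448.9 ± 12.7 in p140Cap libraries. Egln3 made up 87.8% ± 0.316 of that sum in mock and 90.5% ± 0.169 in p140Cap libraries, while Egln1 went from 8.75% ± 0.121 to 7.50% ± 0.103 and Egln2 from 3.44% ± 0.286 to 1.99% ± 0.0852. With the canonical transcript as the length instead of all exons, the Egln3 share was 74.3% ± 0.749 in mock and 80.1% ± 0.362 in p140Cap libraries. By that length Egln1 went from 15.0% ± 0.21 to 13.5% ± 0.158 and Egln2 from 10.6% ± 0.813 to 6.44% ± 0.259, so the sizes of these shares depended on the length, while their order and directions were the same.

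Vhl, the substrate receptor of the ligase that degrades hydroxylated alpha subunits, rose by less than Hif1a, Arnt, Egln1 and Egln3. Its CPM values were 61.6, 58.3 and 61.6 in mock and 73.3, 72.5 and 73.3 in p140Cap libraries, with no overlap and with p140Cap libraries almost equal to each other. On the log2 scale the change was 0.27 (SE 0.049, 1.21-fold, edgeR adjusted p = 0.000115). Vhl (ENSMUSG00000033933) lies at chr6:113623994-113631634. The spans of Hif1a, Epas1, Arnt2, Egln1, Egln2 and Vhl each overlap that of an annotated gene on the opposite strand. Overlap of exons was not tested there either, and no source used here says whether strand was used in counting.

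Hif1an, whose enzyme hydroxylates an asparagine in the transactivation domain of the alpha subunits, was the sole member that fell. It had 127, 125 and 124 CPM in mock and 91.2, 92.9 and 83.8 CPM in p140Cap libraries, so the groups stood apart. The log2 fold change was -0.49 (SE 0.05, 95% confidence interval -0.591 to -0.379, edgeR adjusted p = 2.15e-07), that is, 0.714 of the mock level. Hif1an (ENSMUSG00000036450) lies at chr19:44562854-44576274.

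Chromosome 19 as a whole moved with Hif1an. The median log2 fold change of the 424 tested genes of chromosome 19 was -0.338, and 36.3% of them had a lower value than Hif1an. Hif1an differed from that median by -0.147. On the chromosomes of the other members the medians were between 0.0081 on chromosome 6 and 0.065 on chromosome 7. Egln3 and Hif1a, both on chromosome 12, lay 0.875 and 0.637 above their median of 0.014, and Egln1 lay 0.601 above the chromosome 8 median of 0.022. The part of the chromosome-wide shift in the value of Hif1an was not tested.

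**Figure D3:**
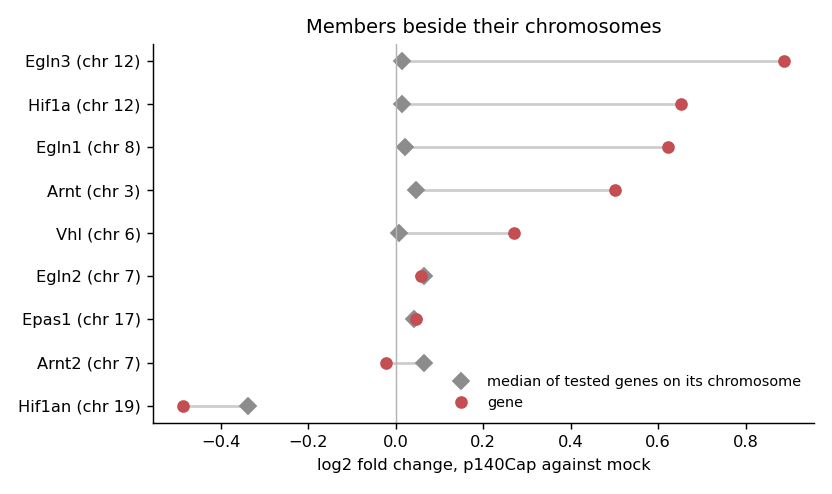
Log2 fold change (p140Cap over mock) of each of the 9 genes beside the median log2 fold change of all tested genes on its chromosome. Hif1an, at -0.49, is the sole member whose chromosome median, -0.338, lies far from 0.

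**Figure D4:**
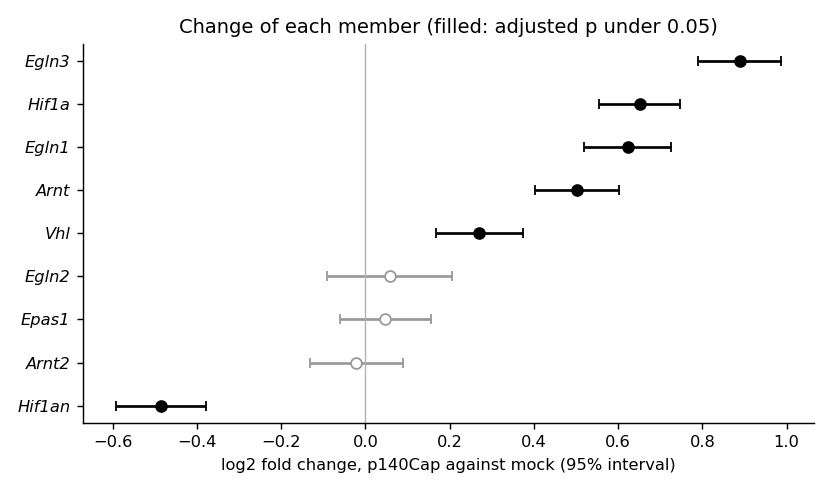
Log2 fold change (p140Cap over mock) of the 9 genes as points with the 95% confidence interval as a horizontal bar, filled where the adjusted p was under 0.05. The intervals of Epas1, Arnt2 and Egln2 include 0, those of Egln3, Hif1a, Egln1, Arnt and Vhl lie above 0, and that of Hif1an lies below 0.

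Levels of different genes can be compared on the scale of CPM per kilobase of exon. In mock libraries Egln3 stood first at 219.4 ± 5.32, followed by Hif1a at 33.5 ± 0.686, Egln1 at 21.9 ± 0.749, Epas1 at 15.6 ± 0.546, Vhl at 14.5 ± 0.461 and Hif1an at 11.01 ± 0.143. Arnt, Egln2 and Arnt2, at 8.62 ± 0.248, 8.61 ± 0.955 and 8.51 ± 0.228, overlapped and had no order beyond their spread on this scale. In p140Cap libraries the first 3 places were the same, with Egln3 at 406 ± 11.1, and Hif1an moved from the sixth place to the last at 7.86, where it overlapped with Arnt2 at 8.39. With canonical transcript lengths Egln3 again stood first in both groups, but Egln1, at 44.4 in mock and 68.3 in p140Cap libraries, then stood above Hif1a at 40.8 and 64.0, and Egln2 came next at 31.5 and 32.7. Arnt, at 17.1 in mock libraries, and Arnt2, at 11.6, then no longer overlapped with Egln2 or with each other. By that length Arnt2, at 11.4 in p140Cap libraries, was last and Hif1an, at 14.4, stood just above it without overlap. The places below Egln3 thus depended on the length used.

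The genes whose profile over the 6 libraries was most like that of Egln3, by the root mean square difference of centred log2 values, were Yipf2 (0.011), Atg10 (0.02) and Ube2h (0.022). Their log2 fold changes were 0.87, 0.89 and 0.88, next to 0.89 for Egln3, a closeness that follows from the way they were chosen.

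The other parts of the pathway were described by 5 lists. The first holds 11 binding partners and ligase subunits, of which 9 were tested, 3 rose, 4 fell and 2 were not called (Ahr and Tceb2), with a median log2 fold change of -0.106. The share called, 77.8% of the tested partners, was near the 71.1% of all genes. Among the partners of Vhl in its ligase, Cul2, the cullin scaffold, fell from 74.2 to 55.9 CPM (log2 fold change -0.41, SE 0.054, edgeR adjusted p = 4.15e-06). Tceb1, which encodes elongin C, had a log2 fold change of -0.40 (SE 0.06), and Rbx1, the RING subunit, of -0.14 (SE 0.053, edgeR adjusted p = 0.0298). The call of Rbx1 was lost without mock replicate 2, without p140Cap replicate 1 and without p140Cap replicate 2. Nedd8, whose product activates cullins, had a log2 fold change of -0.32 (SE 0.057). Arntl, the clock relative of Arnt, rose by 0.20 (SE 0.057, edgeR adjusted p = 0.00467), and the coactivator gene Ncoa2 rose by 0.18. Its relative Ncoa1, with a log2 fold change of 0.12 (edgeR adjusted p = 0.0409), was called in 4 of 15 alternatives and lost its call whichever library was left out.

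Of 16 regulators of alpha subunit stability and activity, 3 rose, 7 fell and 6 were not called, with a median log2 fold change of -0.101. The share called, 62.5%, was near the 71.1% of all genes. Cited4, whose protein binds coactivators that HIF uses, fell from 4.10 ± 0.489 to 0.762 ± 0.137 CPM, with 9 to 12 reads in each p140Cap library. Cited2, its relative, rose by 0.35 on the log2 scale (SE 0.05), whereas Cited1, with a log2 fold change of 0.20 (edgeR adjusted p = 0.121), did not pass the test. Siah1b, of the ubiquitin ligase family that degrades prolyl hydroxylases, fell by 0.96 on the log2 scale (edgeR adjusted p = 4.19e-08), and Siah2 changed by -0.19 (edgeR adjusted p = 0.0209), a call lost without mock replicate 2, p140Cap replicate 1 or p140Cap replicate 3. Siah1a, at 23.3 CPM in mock and 21.9 CPM in p140Cap libraries, did not pass the test (log2 fold change -0.088, edgeR adjusted p = 0.25). The chaperone genes Hsp90aa1 and Hsp90ab1, whose proteins bind the alpha subunit, had log2 fold changes of -0.75 (SE 0.057) and -0.44 (SE 0.044), Hsp90aa1 going from 1090 ± 26.5 to 648.7 ± 52.6 CPM. The genes Ep300, Crebbp and Mtor did not pass the test. Without mock replicate 3, Cited1 and Fkbp8 were called too and 5 regulators rose. Regulators that fell numbered 5 without p140Cap replicate 1 and 8 without p140Cap replicate 2. The call of Rack1 was lost without mock replicate 3, p140Cap replicate 1 or p140Cap replicate 2, and that of Tsc2 without p140Cap replicate 2.

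Among 23 genes of other oxygen-dependent dioxygenases, most of which also use 2-oxoglutarate, 21 were tested, 17 rose, 0 fell and 4 were not called (Ado, Kdm4a, P4ha2 and Plod3), where 35.2% of all genes rose. The median log2 fold change of the list was 0.33. Plod1, a collagen lysyl hydroxylase, rose from 64.4 to 158 CPM (log2 fold change 1.30, SE 0.06, edgeR adjusted p = 1.74e-11), and Tet2, which oxidizes methylcytosine, from 82.0 to 190 CPM (1.21, SE 0.053). Tet1 rose by 0.88 (SE 0.071) and the histone demethylase gene Kdm5b by 0.83 (SE 0.048). At the other end of the list Ado, the cysteamine dioxygenase, had a log2 fold change of -0.094 and was called lower without mock replicate 1, where 1 gene of the list fell.

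Genes of the enzymes that make or use 2-oxoglutarate, succinate and fumarate, which are substrate and inhibitors of these hydroxylases, numbered 19, of which 4 rose, 10 fell and 5 were not called, with a median log2 fold change of -0.179. The share called, 73.7%, was near the 71.1% of all genes, of which 35.2% rose and 35.9% fell. Dlst, a subunit of the 2-oxoglutarate dehydrogenase, fell from 161 to 116 CPM (log2 fold change -0.47, SE 0.046), Idh3a from 340 to 248 CPM (-0.45, SE 0.048) and Glud1 from 46.4 to 35.4 CPM (-0.39, SE 0.058). Idh1, the cytosolic isocitrate dehydrogenase, rose from 109 to 144 CPM (0.40, SE 0.049, edgeR adjusted p = 1.46e-06). Of the succinate dehydrogenase genes, Sdhb and Sdhd fell by 0.26 and 0.21 on the log2 scale, Sdhc rose by 0.34, and Sdha, at -0.056, did not pass the test. The number of metabolite genes that rose was 2 without mock replicate 1 and 2 without p140Cap replicate 3, with Idh3g and D2hgdh no longer called.

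Of 20 target genes of HIF, 17 rose, 1 fell and 2 were not called (Hilpda and Stc2), with a median log2 fold change of 0.662, where 35.2% of all genes rose and 35.9% fell. This list was written with the rise of several of its genes known, so its count is not independent evidence of its direction. The members Egln3 and Egln1, which are targets as well, were left out of it. Its median lay between the log2 fold changes of Egln1 and Egln3, while Car9, the carbonic anhydrase of hypoxic tumors, rose from 9.10 ± 0.66 to 158 ± 8.83 CPM. Adm, which encodes adrenomedullin, went the other way, from 4.05 ± 0.416 to 0.498 ± 0.26 CPM, with 4 to 12 reads in each p140Cap library. Without mock replicate 2, Stc2 was called too, so that 2 targets fell, and 16 rose, since Ldha was no longer called (adjusted p = 0.0566).

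**Figure D5:**
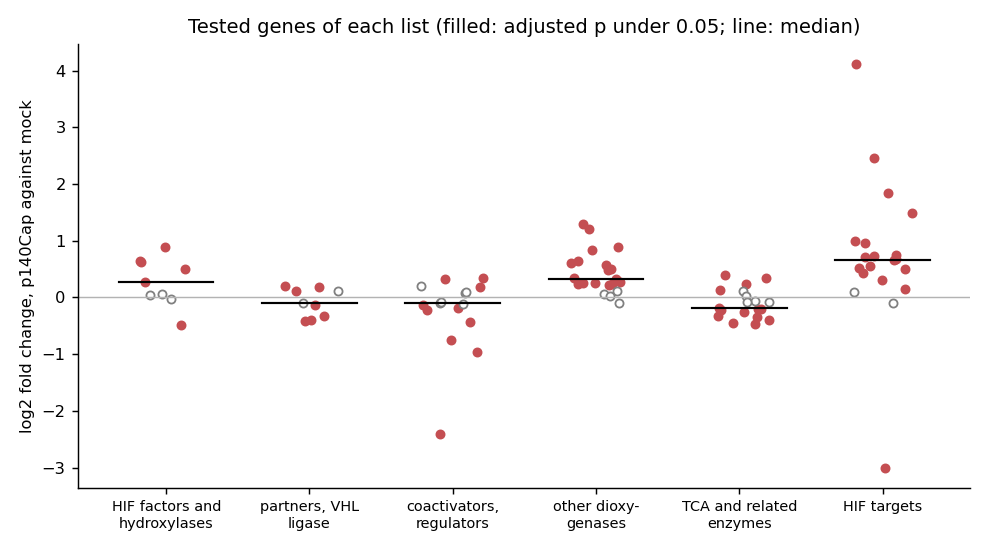
Log2 fold change (p140Cap over mock) of each tested gene of the 9 members and of the 5 lists, with each point a gene, filled where the adjusted p was under 0.05, and the line the median. Dioxygenases and target genes lie mainly above 0, with medians of 0.33 and 0.662, whereas partners, regulators and metabolite genes have medians of -0.106, -0.101 and -0.179.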

How the data were processed

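RNA-Seq libraries (poly(A) RNA, stranded TruSeq, Illumina NextSeq) of 3 mock and 3 p140Cap cell samples were processed by the authors with docker4seq. The submitters' processing notes name STAR 2.5, RSEM 0.1.1 and mm10. The paper also names GRCm39, without tying it to the alignment of these reads. No source used here gives the annotation release, the use of strand, or whether the numbers are rounded RSEM estimates. The authors deposited counts, whole numbers of reads per gene for 21960 genes, with no normalization and 1 column per sample.

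Counts were analysed in R 4.3.3 with edgeR 4.0.16: TMM factors, filterByExpr by group, and the quasi-likelihood test with group as the sole term, with Benjamini-Hochberg adjustment over 11800 genes and a threshold of 0.05. Intervals are 95% confidence intervals from the fit. CPM used the TMM-adjusted totals, and log2 ratios between genes used a pseudocount of 0.5 reads and exact permutation tests. Total reads were 13770385 to 75506562 per library, and the common coefficient of variation was 4.57%. Gene lengths for CPM per kilobase and overlaps of gene spans came from GENCODE vM39. Positions and promoters came from RefSeq on GRCm38.p6, in which 98.6% of gene identifiers were matched. The fit was tested on counts simulated for mock against p140Cap: of 11734 genes 200 were changed, 93% of these were recovered and 3.63% of calls were unchanged genes.

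The members and the lists were chosen with earlier results of these data known. Named genes were the 9 members, the called genes of largest change in each list (at most 4), and the 3 genes nearest to Egln3 in profile. Hif3a, Rbx1, Ncoa1, Ncoa2, Cited2, Siah2, Rack1, Tsc2, Sdhb, Sdhc and Sdhd, and genes given as not called or whose call changed without 1 library, were named after their values were seen. Ndrg1 and Pfkfb3, also taken by the rule, had log2 fold changes of 2.47 and 1.85. Alternatives were RLE factors, no filter, at least 10 reads in every library, thinning to equal depth, DESeq2 1.42.0, limma-voom (limma 3.58.1), a replicate block, other pseudocounts and each library left out. Library totals alone, upper-quartile factors and canonical transcript lengths were added after seeing the data. Between libraries of the same group the mean chi-square per gene was 1.75 to 10.7, where sampling noise gives about 1, so none was a second copy of another.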

Additional observations from a re-analysis of the deposited data

How the results depend on the processing

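The 6 called members kept their direction and their call in all 15 alternatives, with log2 fold changes of 0.852 to 0.902 for Egln3, 0.614 to 0.666 for Hif1a, 0.586 to 0.637 for Egln1, 0.465 to 0.523 for Arnt, 0.234 to 0.289 for Vhl and -0.523 to -0.443 for Hif1an. With 1 library left out, Egln2 ranged from -0.004 to 0.14 and Arnt2 from -0.061 to 0.015. Epas1 and Arnt2 were called in 0 of the 15 alternatives and Egln2 in 1. With no filter on low counts, 1 dioxygenase gene (P4ha3) was called lower, and with at least 10 reads in every library, which removes Adm, 0 targets were. With 1 library left out, the genes called were 0 to 1 of the dioxygenases and 1 to 2 of the targets in the lower direction, and 2 to 5 of the metabolite genes and 2 to 5 of the regulators in the higher direction. The cause of these changes was not tested beyond the removal of Adm. With a replicate block, 8034 genes were called against 8388 without it, 5 members rose and 1 fell, and the block changed no call of a member. In the lists, Rbx1 (adjusted p = 0.0546) and Ncoa1 (adjusted p = 0.0831) were not called with the replicate block. Ncoa1 was called in 4 of 15 alternatives, Idh3g in 9, and Rbx1 and Siah2 in 11. Same-numbered libraries of both groups did not deviate together (correlations of -0.0299, -0.106 and -0.0573). No sign of pairing by number was thus seen, but such correlations cannot exclude a pairing of small effect. Library totals alone shifted the median of all genes to -0.039 and upheld the direction of each member. Depth limits Adm and Cited4, with at most 12 reads per p140Cap library, and with 3 libraries a group the exact permutation tests of ratios could not fall below p = 0.1.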
